A study of Mus musculus with 2 samples.

Results

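Expression of 39 epithelial junction and polarity genes was followed in 4T1 tumours. The members are genes of cell-cell junctions, keratins, apical-basal polarity, membrane sorting and epithelial transcription and splicing. They were matched by gene symbol, and all 39 are among the 32285 genes listed. 4T1 is a mouse mammary carcinoma line that serves as a model of triple-negative breast cancer. Here the cells had been placed in Matrigel and buffered saline and injected into the mammary fat pad of mice. β-elemene, a plant sesquiterpene, was injected intraperitoneally each day at 30 mg/kg, and vehicle mice got the same volume of normal saline. Tumours were dissociated after 18 days and profiled by droplet single-cell RNA sequencing, with 1 library per group. The host strain, its age and sex, and how many mice each library holds are not given in the sources used here.

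Epithelial cells hold together through adherens junctions, tight junctions and desmosomes, and keratin filaments run through the cell to the desmosomes. Polarity complexes and sorting adaptors send proteins to the apical or the basolateral face. Carcinoma cells can lose part of this set while gaining mesenchymal genes such as Vim, a change known as epithelial-mesenchymal transition, and repressors of the ZEB and SNAIL families that drive it bind the E2-box in promoters of epithelial genes.

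Promoter sequences of members are shown because the members share a sequence feature that their choice did not use. The RefSeq table of the GRCm38.p6 build held promoters of 25 of the 39 members, each from 250 bases before to 50 bases after the gene's start. The E2-box, spelled CACCTG and searched on both strands, was in 19 of these 25 promoters (76.0%). Of all 27025 promoters of the same length, 5413 held it (20.0%), as did 1960 of the 11134 promoters of genes measured in malignant cells (17.6%). Median GC content was 60.7% in the members' promoters, 52.7% in all promoters and 60.3% in those of measured genes. The E2-box letters stood in the promoters of 4 of the 5 members with a promoter in the table that were at least 1.5-fold higher with β-elemene, and of 15 of the other 20. Below are Rab25, Ap1m2 and Crb3, the polarity and sorting members described in the results, with Epcam, the most abundant member outside the keratins and Wfdc2, and Fgfbp1, whose window held no match. Capitals mark the E2-box or its reverse complement.
Rab25, chr3:88548230-88548529, minus strand: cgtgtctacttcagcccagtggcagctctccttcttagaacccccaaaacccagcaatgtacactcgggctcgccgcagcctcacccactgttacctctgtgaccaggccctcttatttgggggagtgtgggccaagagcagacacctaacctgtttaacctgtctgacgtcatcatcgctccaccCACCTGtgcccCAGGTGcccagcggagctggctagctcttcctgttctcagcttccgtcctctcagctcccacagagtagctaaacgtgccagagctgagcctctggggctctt
Ap1m2, chr9:21312284-21312583, minus strand: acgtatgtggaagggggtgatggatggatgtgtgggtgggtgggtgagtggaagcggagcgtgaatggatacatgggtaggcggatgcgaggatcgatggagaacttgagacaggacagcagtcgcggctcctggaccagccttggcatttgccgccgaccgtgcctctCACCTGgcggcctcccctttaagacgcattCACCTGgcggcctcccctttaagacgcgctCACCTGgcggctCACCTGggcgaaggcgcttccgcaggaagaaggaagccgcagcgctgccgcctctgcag
Crb3, chr17:57061951-57062250, plus strand: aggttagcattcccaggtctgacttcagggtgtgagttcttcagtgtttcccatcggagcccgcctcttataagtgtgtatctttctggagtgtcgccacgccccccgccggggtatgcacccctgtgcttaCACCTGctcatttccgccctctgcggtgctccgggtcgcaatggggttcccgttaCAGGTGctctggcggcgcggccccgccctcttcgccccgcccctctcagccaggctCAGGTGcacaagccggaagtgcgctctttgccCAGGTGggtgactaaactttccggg
Epcam, chr17:87635729-87636028, plus strand: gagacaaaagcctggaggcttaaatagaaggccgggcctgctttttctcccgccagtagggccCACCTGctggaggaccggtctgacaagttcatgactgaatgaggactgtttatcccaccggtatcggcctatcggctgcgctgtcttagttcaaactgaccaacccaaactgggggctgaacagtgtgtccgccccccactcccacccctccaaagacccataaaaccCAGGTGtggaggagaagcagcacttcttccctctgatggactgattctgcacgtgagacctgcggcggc
Fgfbp1, chr5:43981750-43982049, minus strand: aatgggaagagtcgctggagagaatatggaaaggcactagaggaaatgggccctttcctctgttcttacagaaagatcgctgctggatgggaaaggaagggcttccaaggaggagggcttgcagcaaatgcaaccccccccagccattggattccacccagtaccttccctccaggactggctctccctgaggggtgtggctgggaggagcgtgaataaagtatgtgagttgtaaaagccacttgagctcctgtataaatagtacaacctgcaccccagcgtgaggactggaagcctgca
Ap1m2 and Crb3 held 4 matches each, Rab25 and Epcam 2 each. A site for grainyhead factors such as Grhl2, spelled AACCNGTT, was in 1 of the 25 member promoters, that of Rab25, where it did not overlap the E2-box, and in 2.01% of all promoters. The ETS core CGGAAG, the kind of site that factors such as Elf3 and Ehf bind, was in 6 of 25 (24.0%) and in 17.2% of all promoters, and in 30.4% of those of measured genes. These are matches of letters, not measured binding.

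After filters and removal of called doublets, 10525 cells of the β-elemene library and 10415 of the vehicle library were used. Malignant cells were those with at least 10 UMIs (tagged RNA molecules) of Krt8 plus Krt18 per 10000 and no UMI of Ptprc, the pan-leukocyte gene. This gate held 3020 β-elemene cells (28.7%) and 3425 vehicle cells (32.9%), with a median of 20783 UMIs per β-elemene cell and 21057 per vehicle cell. Between 10 and 15 per 10000, just inside the gate, lay 250 of these β-elemene cells and 400 of these vehicle cells. Between 5 and 10, just outside it, lay 253 β-elemene and 345 vehicle cells without Ptprc. Of the gated cells, 108 β-elemene and 82 vehicle cells sat in clusters of other classes and 362 β-elemene and 216 vehicle cells in shallow unnamed clusters. The libraries shared 28 barcodes among the cells used. Marker lists of 10 genes for other classes, none at 0 in either gate, summed to 175 CPM in gated β-elemene cells and 116 CPM in gated vehicle cells for neutrophils, and to 248 and 238 CPM for macrophages. Those for fibroblasts summed to 462 CPM with β-elemene and 384 CPM with vehicle, and those for endothelium to 79.0 and 109 CPM. Those for monocytes summed to 1660 CPM with β-elemene and 1562 CPM with vehicle, of which Fn1 alone, also a gene of the mesenchymal list, gave 1615 CPM with β-elemene and 1520 CPM with vehicle. Those for T and NK cells summed to 6.21 CPM with β-elemene and 6.84 CPM with vehicle. The part of such cells in the results below was not tested.

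Levels are UMIs summed over the gated cells of a library per 1000000 UMIs of those cells (CPM). The chemistry tags the 3' end of each molecule, so levels were not divided by transcript length. With 1 library per group there is no replicate and no test. All intervals are exact 95% intervals for counting error only, and say nothing of the spread between tumours. A member was measured with at least 50 UMIs over both libraries, and called higher or lower at a ratio of 1.5-fold or more with an interval that excludes 1.

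Across malignant cells the members sat mostly higher with β-elemene, by small margins, and 7 genes, among them all polarity and sorting members, stood above the rest. Of 39 members 38 were measured, and 7 were called higher, namely Fgfbp1, Bspry, Ap1m2, Rab25, Foxq1, S100a14 and Crb3. Over all 14976 genes measured the same rule called 1.88% higher. All 7 were already known from these data to be among the higher genes of malignant cells when members were chosen. Their number beside that share is therefore a description only. No member was called lower, against 6.16% of all genes. The ratio was above 1 for 32 of 38 members, against 46.8% of all genes, and the interval lay above 1 for 28, below 1 for 3 and included 1 for 7. The members' median log2 ratio was 0.24, against -0.02 for all genes. Summed without Krt8 and Krt18, the genes of the gate, the members made up 4522 CPM in β-elemene cells and 3736 CPM in vehicle cells (ratio 1.21, interval 1.20 to 1.22). Wfdc2 (1704 and 1406 CPM) and Epcam (812 and 607 CPM) gave most of both sums and most of their difference. The sum thus speaks mainly for these genes.

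**Figure D1:**
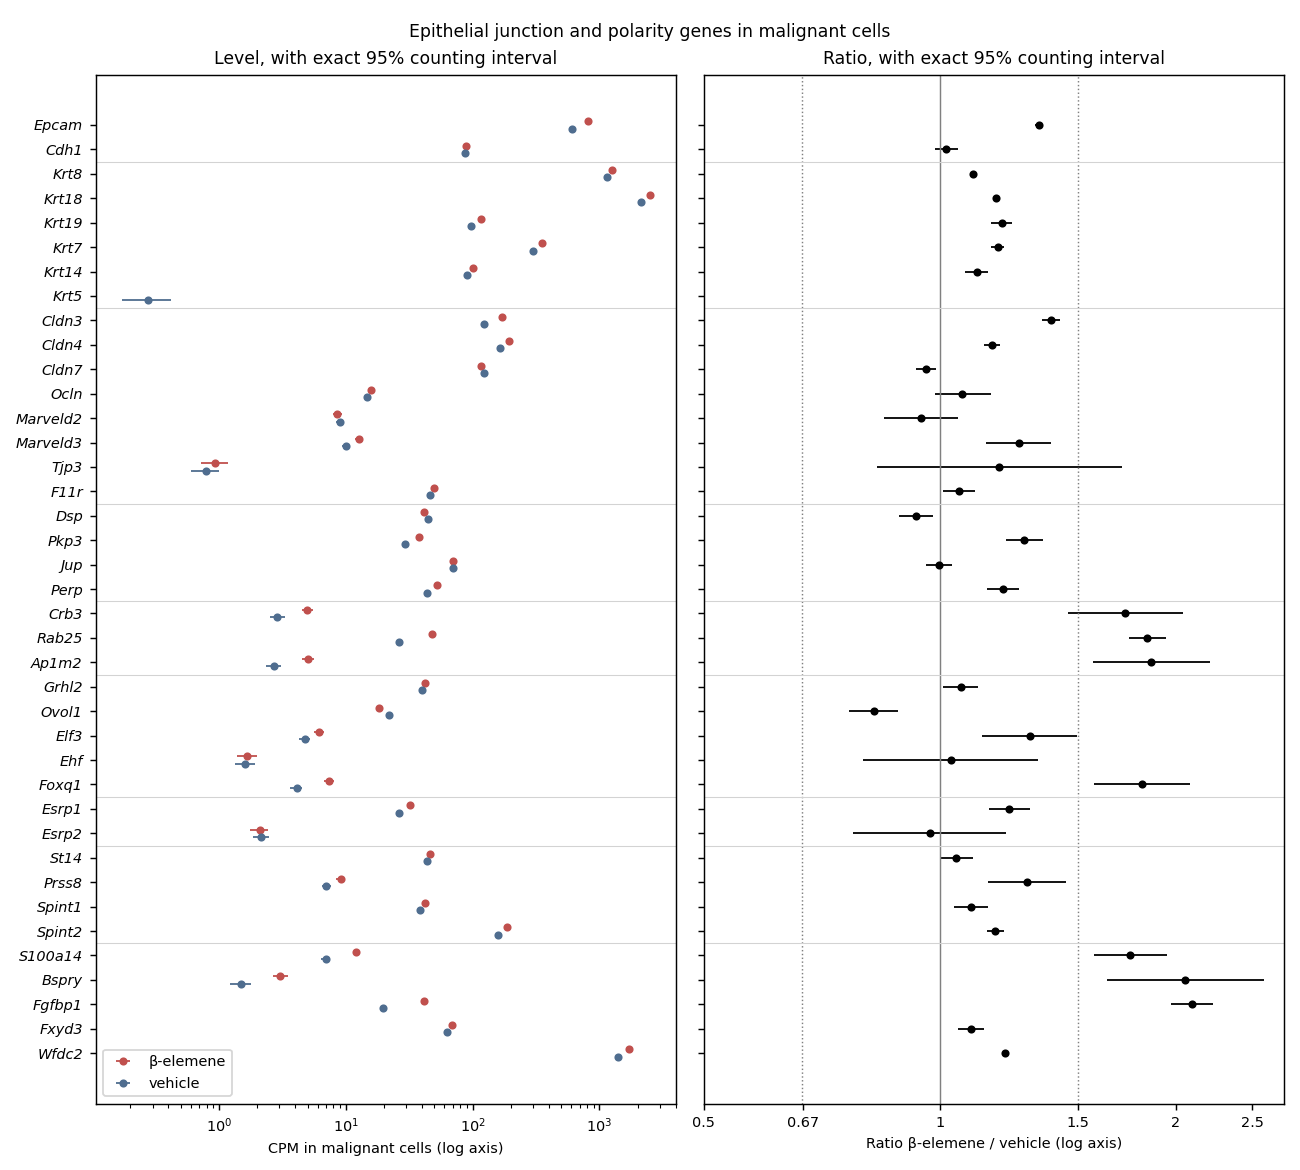
Level and ratio of each member in malignant cells, grouped by role. The left panel gives CPM on a log axis with exact 95% counting intervals for β-elemene and vehicle cells, and the right panel gives the ratio of β-elemene to vehicle with dotted lines at 1.5-fold in either direction. The 7 members called higher lie between ratios of 1.72 and 2.09, and no measured member lies at or below the lower dotted line. Krt5 has no ratio, and its level of 0 in β-elemene cells is not drawn.

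All 3 polarity and sorting members were called higher, and all 3 were among the genes already known from these data to be higher. Rab25, a small GTPase that returns membrane proteins to the cell surface, had 48.1 CPM in β-elemene cells and 26.2 CPM in vehicle cells, a ratio of 1.84 (1.74 to 1.94). Ap1m2, the epithelial subunit of the AP-1 clathrin adaptor that sorts cargo to the basolateral face, had 5.06 CPM with β-elemene and 2.72 CPM with vehicle (ratio 1.86, 1.57 to 2.21). Crb3, a Crumbs protein that marks the apical membrane, had 4.99 and 2.90 CPM in β-elemene and vehicle cells (ratio 1.72, 1.46 to 2.04). Rab25 was thus the abundant member of this group, and its interval is the narrowest. Crb3 overlaps Slc25a23 and Dennd1c on the opposite strand, and whether reads were counted by strand is not given in the sources used here. Such an overlap applies to 17 of the 39 members, so their levels are uncertain to that extent.

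Of the other epithelial proteins 3 of 5 were called higher. Fgfbp1, a secreted carrier that releases fibroblast growth factors from the matrix, had the highest ratio of all members at 2.09 (1.97 to 2.23), with 41.1 CPM in β-elemene cells and 19.6 CPM in vehicle cells. S100a14, a calcium-binding protein of epithelia, had 12.1 CPM against 6.94 CPM with vehicle (ratio 1.75, 1.57 to 1.95). Bspry, a B-box and SPRY domain protein, had 3.05 CPM against 1.49 CPM with vehicle, from 218 β-elemene and 119 vehicle UMIs, and its ratio of 2.05 has the wide interval 1.63 to 2.59. The other members of this group were abundant and differed little. Wfdc2, a secreted protein with whey acidic protein domains, stood at 1704 CPM with β-elemene and 1406 CPM with vehicle (ratio 1.21). Fxyd3, a regulator of the sodium pump, stood at 68.9 and 62.9 CPM in β-elemene and vehicle cells (ratio 1.10).

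Among the transcription factors Foxq1 alone of 5 was called, and Ovol1 had the lowest ratio of all measured members. Foxq1, a forkhead factor, had 7.41 CPM in β-elemene cells and 4.10 CPM in vehicle cells (ratio 1.81, 1.57 to 2.08). Ovol1, a zinc finger factor that holds cells in the epithelial state, had 18.2 CPM with β-elemene and 22.1 CPM with vehicle (ratio 0.82, 0.77 to 0.89). Elf3, an ETS factor of epithelia, had 6.18 CPM against 4.74 CPM with vehicle (ratio 1.30). Grhl2, a grainyhead factor that activates junction genes, was nearly level at 42.1 CPM with β-elemene and 39.6 CPM with vehicle (ratio 1.06). Ehf, another ETS factor, had 119 β-elemene and 129 vehicle UMIs (ratio 1.03, 0.80 to 1.34), for the most part in a small cluster described below. The splicing factors that set the epithelial form of many transcripts, Esrp1 and Esrp2, had ratios of 1.23 and 0.97.

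No adhesion, keratin or junction member reached 1.5-fold. Epcam, the epithelial cell adhesion molecule, had 812 CPM in β-elemene cells and 607 CPM in vehicle cells, a ratio of 1.34 (1.32 to 1.35). Cdh1, the E-cadherin of adherens junctions, was level at 88.2 CPM with β-elemene and 86.6 CPM with vehicle (ratio 1.02, 0.99 to 1.06). The keratin pair of simple epithelia that defined the gate, Krt8 and Krt18, is given as a description only, with ratios of 1.10 and 1.18. Krt7, a simple keratin of glands, had 355 CPM against 299 CPM with vehicle (ratio 1.19), and Krt19, the smallest keratin, had 116 CPM against 96.6 CPM with vehicle (ratio 1.20). The basal keratin Krt14 had 100.3 CPM with β-elemene and 90.0 CPM with vehicle and was uneven among cells, with a UMI in 39.6% of β-elemene cells and 35.2% of vehicle cells and up to 87 UMIs in 1 β-elemene cell and 90 in 1 vehicle cell. Its partner Krt5 was not measured: it had 0 UMIs in β-elemene cells, which allows up to 0.042 CPM, and 22 UMIs in 5 vehicle cells, 12 of them in 1 cell.

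The tight junction members split. Cldn3 and Cldn4, claudins that form and seal the junction strands, had ratios of 1.38 (170 CPM with β-elemene, 123 CPM with vehicle) and 1.17 (192 CPM with β-elemene, 165 CPM with vehicle). Cldn7 had 117 CPM in β-elemene cells and 122 CPM in vehicle cells, and its interval lay just below 1 (0.93 to 0.99). Cldn3 and Cldn4 are neighbours on chromosome 5, 39280 bases apart, and their ratios differ beyond counting error. Of the MARVEL proteins of the junction, Marveld3 had the highest ratio at 1.26, with 12.7 CPM in β-elemene cells and 10.1 CPM in vehicle cells, while the intervals of Ocln (1.07) and Marveld2 (0.95) include 1. F11r, the junctional adhesion molecule A, was at 49.3 CPM with β-elemene and 46.6 CPM with vehicle. Tjp3, the ZO-3 scaffold, was scarce at 67 β-elemene and 63 vehicle UMIs (ratio 1.19, 0.83 to 1.71).

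In the desmosome the linker proteins also went different ways. Pkp3, a plakophilin, had 37.9 CPM in β-elemene cells and 29.6 CPM in vehicle cells (ratio 1.28, 1.21 to 1.36), and Perp, a tetraspan protein of desmosomes, had 52.8 CPM against 43.9 CPM with vehicle (ratio 1.20). Jup, plakoglobin, was at 70.0 CPM with β-elemene and 70.1 CPM with vehicle. Dsp, desmoplakin, which ties keratin filaments to the junction, had 41.3 CPM against 44.3 CPM with vehicle (ratio 0.93, 0.89 to 0.98). The surface proteases St14 (matriptase) and Prss8 (prostasin) and their inhibitors Spint1 and Spint2 all had ratios above 1, at 1.05, 1.29, 1.10 and 1.18.

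Other genes of the same structures, listed apart from the members, gave few calls. Of 21 measured tight junction and polarity genes none was called, with a median log2 ratio of -0.01. Magi1, a scaffold and the most abundant of them, had a ratio of 0.88, and the range ran from 0.84 for Magi3, a related scaffold, to 1.29 for Cgn, cingulin. Of 12 adherens junction genes none was called (median log2 ratio 0.03): Ctnna1, alpha-catenin, led in level at a ratio of 0.94, Actn4, an actin crosslinker, was lowest at 0.89, and Nectin4, a cell adhesion molecule, was highest at 1.48. Among 14 other desmosome and keratin genes (median log2 ratio 0.09), the desmosomal cadherin Dsc2 was called higher (9.28 CPM against 5.98 CPM with vehicle, ratio 1.55), and the stress keratins Krt16 (11.7 CPM against 17.5 CPM, ratio 0.67) and Krt6a (0.31 CPM against 0.85 CPM, ratio 0.36) were called lower. Sfn, a 14-3-3 protein and the most abundant of these, had a ratio of 0.84. Of 29 other epithelial genes (median log2 ratio 0.01) only Lcn2, lipocalin 2, was called, at 738 CPM in β-elemene cells and 426 CPM in vehicle cells (ratio 1.73), and Foxa1, a forkhead factor, was lowest at 0.69.

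Mesenchymal genes did not mirror the epithelial members. Of 18 measured, none was called in either direction, 12 had ratios above 1 and their median log2 ratio was 0.09. Vim, vimentin, had 2788 CPM in β-elemene cells and 2747 CPM in vehicle cells. Cd44, a hyaluronan receptor, was lowest at 360 CPM against 533 CPM with vehicle (ratio 0.67), and Twist2 was highest at a ratio of 1.44. Of 10 measured genes of normal mammary epithelium (median log2 ratio -0.30), the milk protein gene Csn3 (7.79 CPM against 14.8 CPM with vehicle, ratio 0.52) was called lower. So was the smooth muscle myosin Myh11 (ratio 0.51, 0.26 to 0.95), from only 16 β-elemene and 35 vehicle UMIs. The myosin kinase gene Mylk was called higher (ratio 1.55). Most gated Csn3 UMIs lay in the small epithelial cluster described below, and outside it Csn3 had 0.85 CPM with β-elemene and 1.22 CPM with vehicle. Areg, amphiregulin and the most abundant of these, had a ratio of 0.79.

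The higher sum of members was spread over many malignant cells, as were the UMIs of Rab25, Fgfbp1 and Epcam. Other called members were more concentrated. The 1% of gated cells with most Foxq1 UMIs held 40.6% of them with β-elemene and 41.8% with vehicle. For Bspry these shares were 36.7% and 43.7%, with a UMI in 5.50% of β-elemene and 2.95% of vehicle cells. When each cell was thinned to 5000 UMIs, leaving out 374 β-elemene and 309 vehicle cells below that depth, a cell held a median of 21 member UMIs outside Krt8 and Krt18 with β-elemene and 16 with vehicle, and a median of 10 members with β-elemene and 9 with vehicle. Over the gate, Wfdc2 and Epcam hold most of the member UMIs outside Krt8 and Krt18. Rab25 then had a UMI in 18.4% of β-elemene cells (16.9 to 19.9%) and 10.3% of vehicle cells (9.23 to 11.4%). Unthinned, these shares were 38.3% with β-elemene and 24.3% with vehicle. In T and NK cells, which should lack Rab25, the thinned share was 1.17% with β-elemene and 0 of 200 cells with vehicle, which allows up to 1.5%. T and NK cells were far shallower, with median depths of 4402 and 4058 UMIs before thinning in the β-elemene and vehicle libraries. Thinning left out 380 β-elemene and 381 vehicle T and NK cells, so their shares rest on the deeper 256 and 200 cells. For Fgfbp1 the thinned share was 13.8% of β-elemene cells and 6.96% of vehicle cells (unthinned 30.6% and 17.0%), against 1.17% and 0 of 200 in T and NK cells. Epcam had a thinned share of 81.4% in β-elemene cells and 75.1% in vehicle cells (unthinned 88.0% and 88.7%), and 9.77% and 9.0% in T and NK cells. The order of the libraries for Epcam thus differs between thinned and unthinned shares, and the thinned order is that of its CPM.

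**Figure D2:**
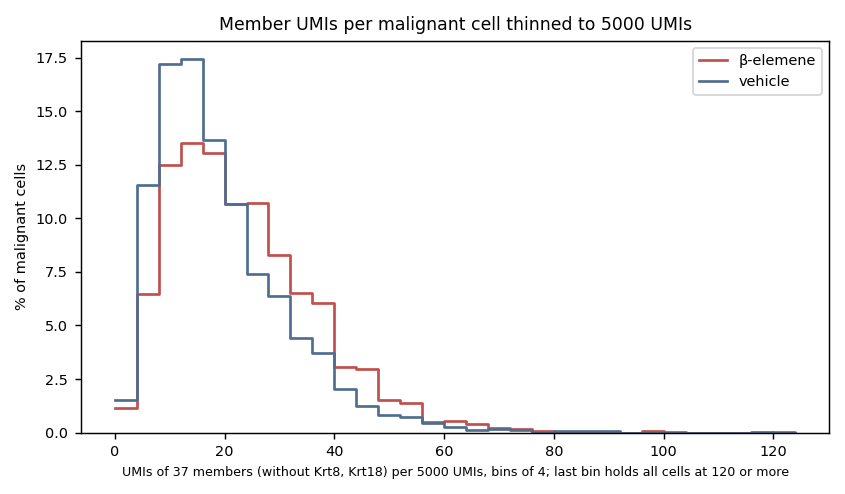
Member UMIs per malignant cell after thinning to 5000 UMIs, without Krt8 and Krt18, as the percentage of cells in bins of 4 UMIs. The β-elemene curve lies to the right of the vehicle curve, with medians of 21 and 16 UMIs.

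Pairs of abundant members ran together to unlike degrees. The genes compared were Epcam, Krt8, Krt18, Krt7, Cldn4, Spint2 and Wfdc2, with Vim and Fn1, so no member called higher was among them. Every pair of members was positive in both libraries, and the lowest was Krt8 and Cldn4 at 0.02 with β-elemene and 0.09 with vehicle. Over cells thinned to 10000 UMIs (2456 β-elemene and 2864 vehicle cells) and 36 pairs of abundant genes, Krt8 and Krt18 had Pearson correlations of 0.57 with β-elemene and 0.53 with vehicle, and Epcam and Cldn4 of 0.51 with β-elemene and 0.45 with vehicle. Epcam and Vim ran opposite, at -0.45 with β-elemene and -0.41 with vehicle, as did Cldn4 and Vim at -0.42 with β-elemene and -0.34 with vehicle. The mesenchymal gene Fn1, fibronectin, ran weakly with the same members, at 0.24 for Cldn4 with β-elemene and 0.15 with vehicle, and at 0.20 for Epcam with β-elemene and 0.08 with vehicle. Krt8 and Vim were also positive, at 0.27 with β-elemene and 0.17 with vehicle. Epcam and Krt8 were almost unrelated, at 0.06 with β-elemene and 0.15 with vehicle. Cells of a library share its preparation, and thinned values sum to a fixed total, so these are descriptions.

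Within the gate, 9 sub-clusters, found without the members, had at least 50 cells in each library. Rab25 had a ratio above 1 in all 9, between 1.33 and 1.81, and Fgfbp1 in all 8 where it was measured, between 1.17 and 2.75. Krt19, Krt7, Perp and Spint2 were also above 1 in all 9, at ratios up to 1.41. Ovol1 was below 1 in 7 of 8 sub-clusters and lowest, at 0.45, in the mitotic sub-cluster led by Cdc20 and Cenpa, with 5.35 CPM in β-elemene cells and 11.9 CPM in vehicle cells. Dsp was likewise below 1 in 7 of 8. Fxyd3, at 1.10 over the whole gate, was above 1 in only 4 of 9, between 0.59 and 1.85 with a median of 0.87. The median log2 ratio of measured members was lowest, at 0.010, in the sub-cluster led by the replication genes Hells and Uhrf1, against 0.015 for all genes there. In the sub-cluster led by Ero1l and Adm it was 0.049 against 0.068, and in the others it lay above that of all genes. It was highest, at 0.42 against 0.094, in the shallow sub-cluster led by Gm26917. There 15 members were measured, 7.33% of all genes were called higher, and the median cell had 2899 UMIs with β-elemene and 2070 with vehicle.

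A sub-cluster led by Csf3, Il11, Has2 and Lif, genes of secreted factors and hyaluronan synthesis, held 302 β-elemene cells (10.0% of the gate, 8.95 to 11.1%) and 698 vehicle cells (20.4%, 19.0 to 21.8%). Among the 9 compared sub-clusters it had the lowest level of several members over both libraries. These included Epcam at 418 CPM, Cldn3 at 71.7 CPM, Rab25 at 7.39 CPM, Fgfbp1 at 9.61 CPM and Wfdc2 at 1278 CPM. A sub-cluster with Lcn2 and haemoglobin transcripts among its leading genes held 16.5% of β-elemene and 12.9% of vehicle cells. Among the 9 compared it was highest for Cldn3 (256 CPM), Cldn4 (363 CPM), Cldn7 (162 CPM), Rab25 (83.7 CPM), Crb3 (8.37 CPM), S100a14 (19.2 CPM) and Wfdc2 (1939 CPM). The small epithelial cluster described below is not among the 9. It had more of some of these, such as Rab25 at 134 CPM with β-elemene and 120 CPM with vehicle, and less Wfdc2 and Fgfbp1 than the Csf3 sub-cluster. In the Lcn2 sub-cluster the haemoglobin gene Hbb-bs was at 65.3 CPM in β-elemene cells and 0.81 CPM in vehicle cells. The part of blood RNA in the members' levels was not tested. Cldn7 was nonetheless slightly lower over the whole gate with β-elemene, as given above. The part of the gate's makeup in the members' ratios was not tested as such. Outside the Csf3 sub-cluster the same 7 members were called higher, where 1.67% of all genes were. With each sub-cluster given equal weight, Crb3, Rab25, Ap1m2 and Fgfbp1 were called higher and Ovol1 lower, against 0.653% of all genes higher and 2.45% lower. That mean took only the compared sub-clusters where a gene was measured, 3 of 9 for Ap1m2 and 4 of 9 for Crb3. It kept the intervals of the whole gate.

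**Figure D3:**
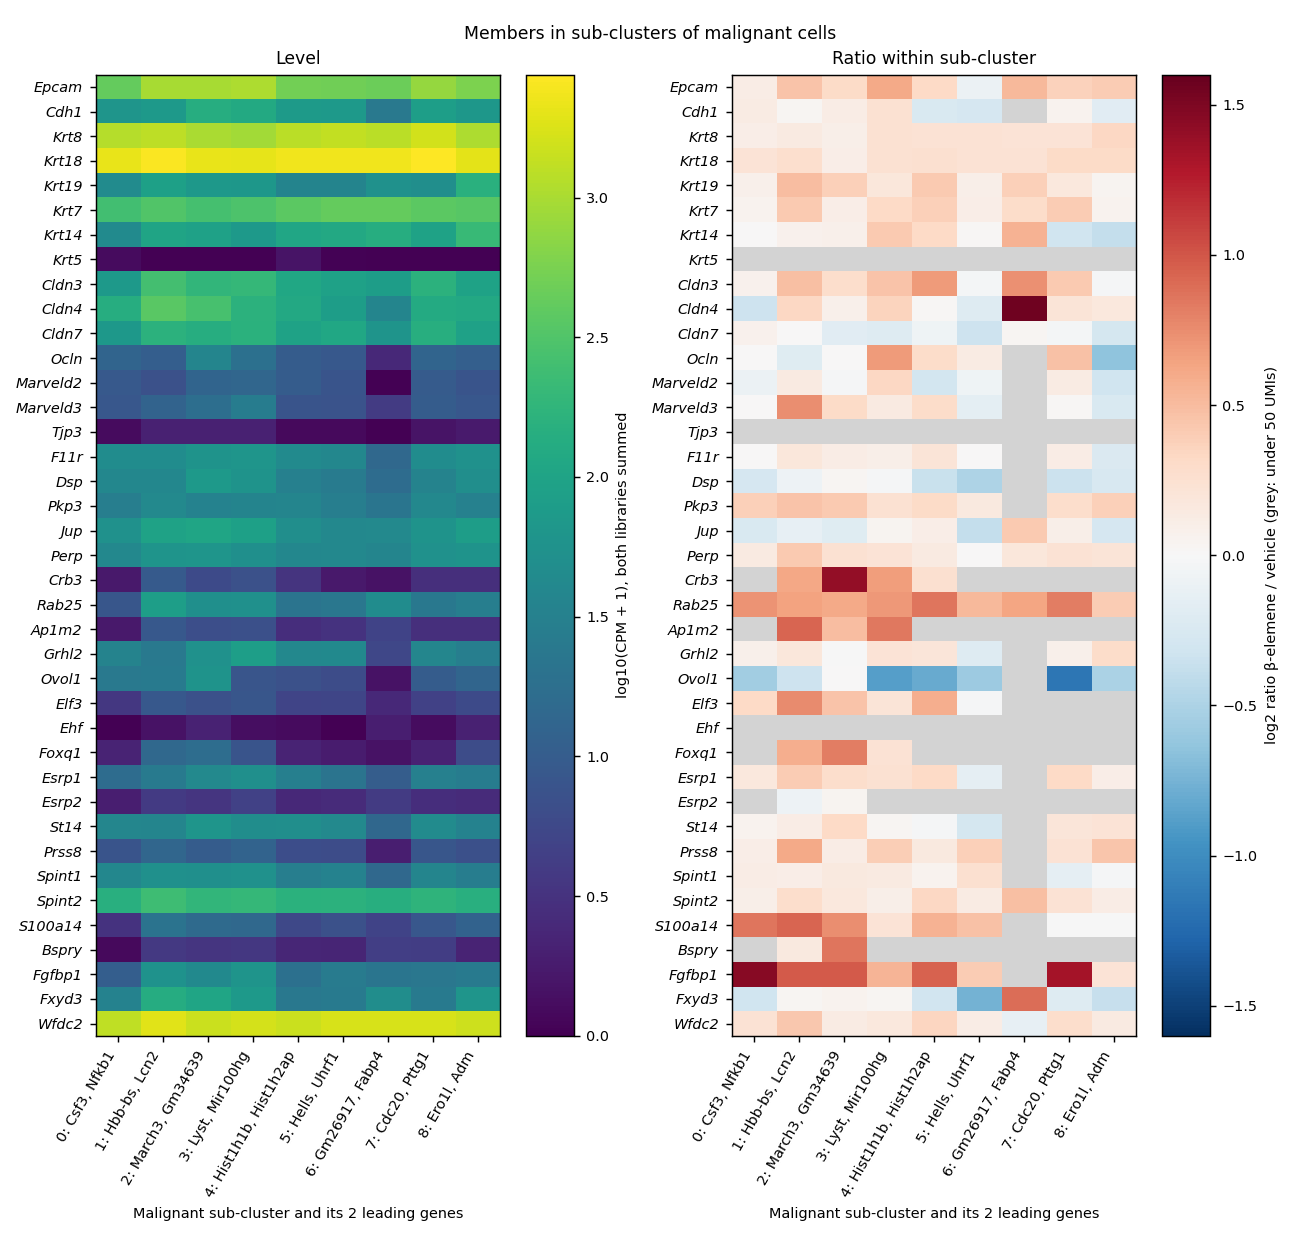
Members in the 9 sub-clusters of malignant cells compared, named by number and leading genes. The left map gives the level over both libraries as log10(CPM + 1), and the right map the log2 ratio of β-elemene to vehicle, grey where under 50 UMIs. Rab25 is on the higher side in every column, and Ovol1 on the lower side in all measured columns but sub-cluster 2, where its ratio was 1.01.

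A small epithelial cluster carried a large part of some members. It was led by Ptn, Prlr, Wfdc18, Cited1, Krt19 and Csn3, genes that include mammary hormone-receptor and milk genes, and held 70 β-elemene and 110 vehicle cells, of which 53 (1.75% of gated) and 81 (2.36%) were in the gate. Those cells held 40.8% of gated Krt19 UMIs with β-elemene and 46.8% with vehicle, and 64.7% of Ehf UMIs with β-elemene and 86.1% with vehicle. Of the members called higher, they held 17.89% of Bspry UMIs with β-elemene and 30.25% with vehicle. For Crb3 these shares were 11.8% and 22.8%, and for Ap1m2 8.01% and 15.6%. For Rab25, S100a14, Foxq1 and Fgfbp1 they were at most 6.34%. Krt19 was at 3732 CPM in the β-elemene cells of the cluster and 69.4 CPM in the other gated β-elemene cells, and at 3353 CPM against 52.0 CPM in vehicle cells. Fxyd3 was 10.8 times higher in the cluster with β-elemene and 11.6 times with vehicle (673 CPM against 62.4 CPM with β-elemene, 646 CPM against 55.7 CPM with vehicle). Krt5 was at 61.4 CPM in the cluster's β-elemene cells and 57.2 CPM in its vehicle cells, in both libraries almost wholly from cells outside the gate. Fgfbp1 and Wfdc2 ran the other way: Wfdc2 was at 931 CPM against 1712 CPM in other gated β-elemene cells, and at 512 CPM against 1417 CPM in vehicle cells. Xist, the X-inactivation RNA, reached 1176 CPM with β-elemene and 1199 CPM with vehicle in the main sub-cluster of these cells, against 1.46 to 22.6 CPM in the 9 compared sub-clusters. Whether they are host mammary epithelium was not tested. Leaving them out gave Ehf a ratio of 2.61, which is called higher, and left the other 7 calls in place.

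**Figure D4:**
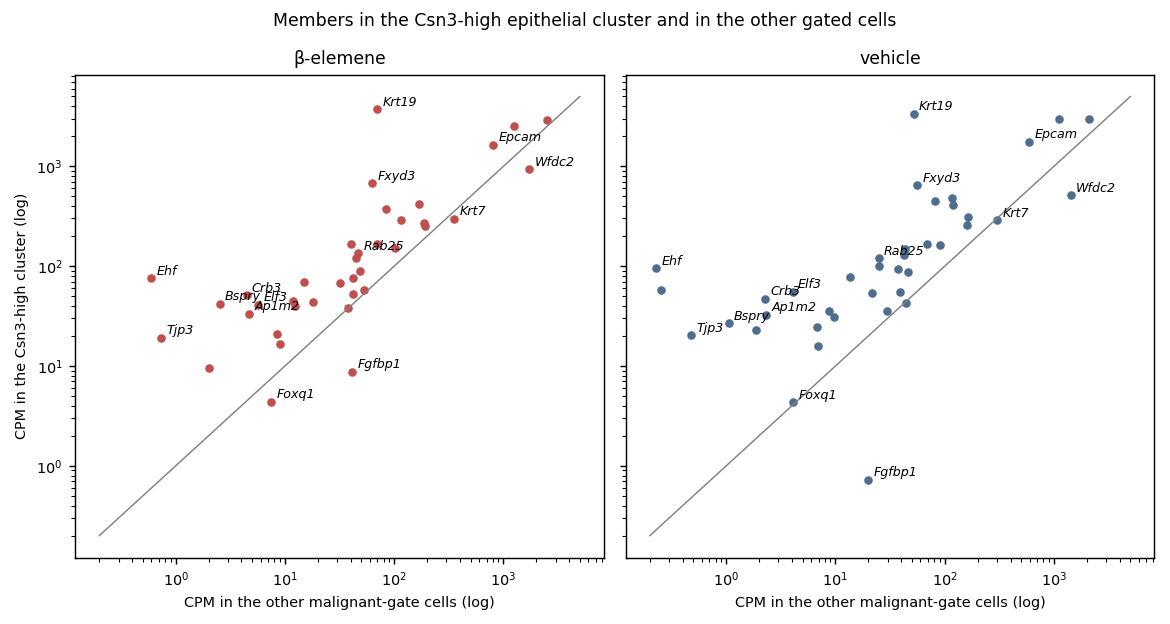
CPM of each member in the Csn3-high epithelial cluster (vertical, log) against the other gated cells (horizontal, log), β-elemene on the left and vehicle on the right. Points above the line are higher in the cluster: Krt19 and Ehf lie far above it and Fgfbp1 and Wfdc2 below it in both libraries. Members at 0 UMIs on either axis are not drawn.

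Outside malignant cells most members were near the low share at which Krt8 and Krt18 were found there. Krt8 and Krt18, which these classes should lack, stood at 1.67% to 4.83% of their malignant level over 6 classes and both libraries, and the median member at 2.20% to 7.03%. A member was set apart where it exceeded 3 times that share in both libraries with at least 10 UMIs. Class names rest on marker genes and were rebuilt here. Endothelial-like cells had more F11r than malignant cells, at 201 CPM with β-elemene and 174 CPM with vehicle, together with Jup (51.6 and 60.5 CPM) and Spint2 (57.2 and 51.0 CPM). F11r and Jup are known in endothelial junctions. T and NK-like cells had Pkp3 at 68.9 CPM with β-elemene and 67.5 CPM with vehicle, above the malignant level, and Bspry at 10.6 and 11.2 CPM, also above it, with Cdh1, Spint2 and St14 at lower levels. St14, from 17 β-elemene and 12 vehicle UMIs, was not set apart there under 4 of 6 alternatives. For Cdh1, Pkp3, Bspry and Spint2 these cells are therefore no measure of background.

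Macrophage-like cells had F11r (14.2 CPM with β-elemene and 15.2 CPM with vehicle), Cdh1 (15.9 and 19.5 CPM), Jup, Bspry and Tjp3. Tjp3, at 2.24 and 1.76 CPM, was above its malignant level. Macrophage clusters differed: Cdh1 had 38.16 CPM with β-elemene and 39.98 CPM with vehicle in that led by Mmp12 and Arg1. In that led by Ccl8 and Lyve1, Cdh1 had 4.197 and 4.164 CPM and F11r 3.298 and 2.082 CPM, while Jup was higher there. Bspry was scarce, with 8 β-elemene and 7 vehicle UMIs in the largest macrophage cluster. With doublets kept, only F11r and Tjp3 were set apart in macrophage-like cells. Monocyte-like cells had Cdh1, F11r, Jup and Pkp3. Fibroblast-like cells had Jup and Krt19, the last at 60.6 CPM with β-elemene and 53.6 CPM with vehicle, mostly in a cluster led by Tagln and Acta2 (104 and 84.6 CPM). Jup was not set apart in fibroblast-like cells with doublets kept or with Krt8, Krt18, Krt19 and Epcam as the reference. It was also lost with all cells of the class and against the median over members. No member was set apart in neutrophil-like cells, whose median depth was 1999 UMIs with β-elemene and 1926 with vehicle. Of the 7 members called higher in malignant cells, Bspry was the one set apart in another class.

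**Figure D5:**
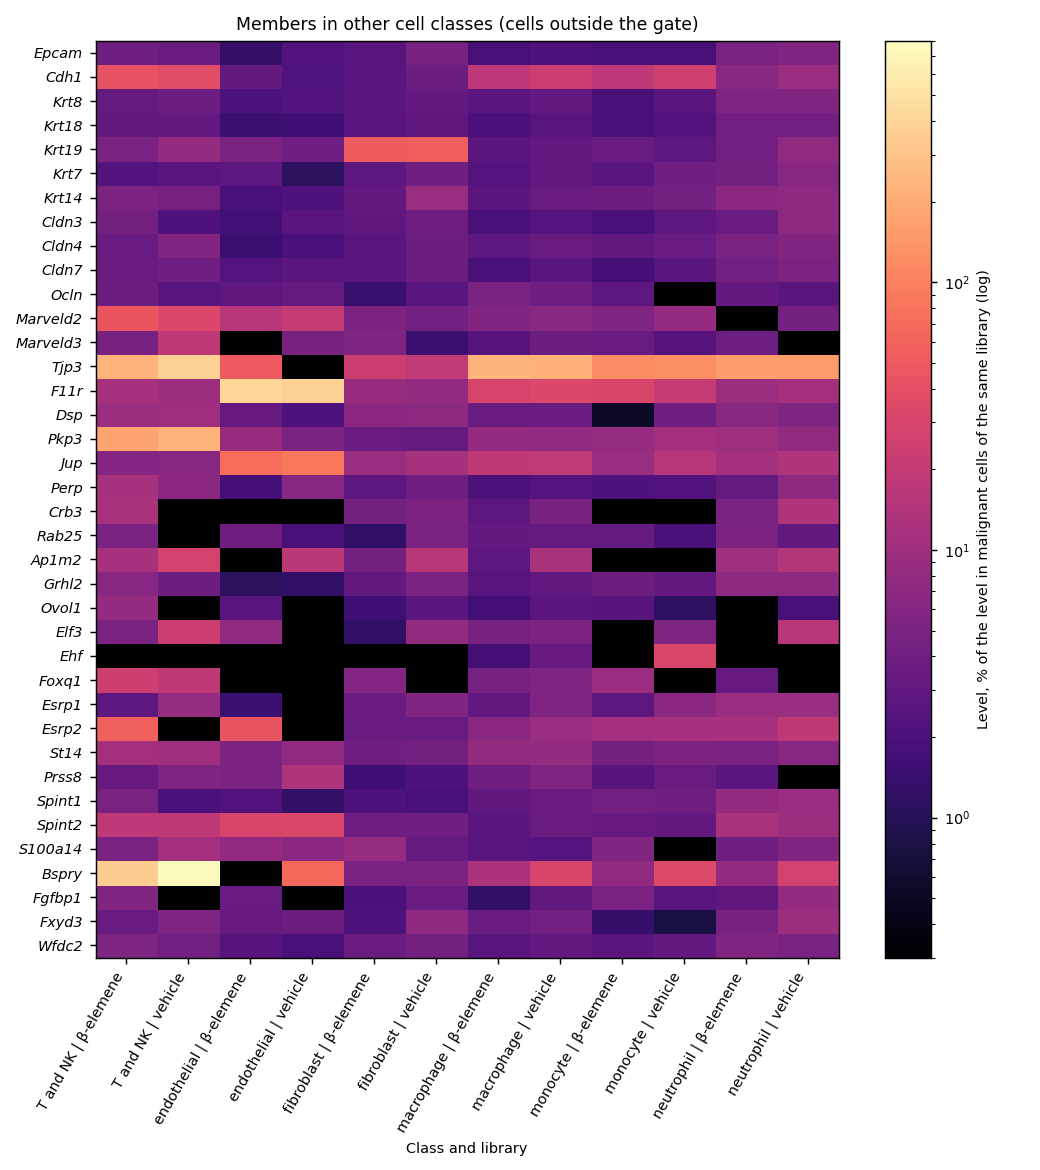
Level of each member in 6 other classes as a percentage of its level in malignant cells of the same library, on a log colour scale clipped at 0.3 and 800, with β-elemene left of vehicle for each class. The bright cells are F11r in endothelial cells, Pkp3 and Bspry in T and NK cells, Krt19 in fibroblasts and Tjp3, which is scarce in malignant cells, in several classes.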

How the data were processed

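The deposited values are unnormalised UMI counts per gene and barcode, 1 matrix per library. Cell Ranger 7.1.0 wrote the matrices, per the file headers. The submitters' processing notes name Cell Ranger, STAR and the mm10 build. The annotation, strand and intron counting and cell calling are not given in the sources used here. The files hold 11539 barcodes and 157282740 UMIs for β-elemene, and 11324 barcodes and 168750895 UMIs for vehicle.

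Barcodes with at least 200 genes and at most 20% mitochondrial UMIs were kept, and simulated-doublet scoring in each library removed 336 β-elemene and 388 vehicle barcodes (3.09% and 3.59%). Cells of both libraries were clustered together without the members (2000 variable genes, 30 components, 15 neighbours, Leiden resolution 1.0, sub-clusters 0.6), and classes were named from marker lists with at least 3 markers. Clusters rebuilt this way may differ from the study's own. UMIs were summed per library and class. Ratios have exact conditional intervals, levels Poisson and shares binomial (Clopper-Pearson) ones, at 95%, and the floor for 0 is 3 counts. The ratio script was tested on simulated counts. No test was made from cells.

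Members, gene lists and rules were chosen with earlier results of these data known. Several members, among them Fgfbp1, Bspry, Foxq1, Ap1m2, Rab25, Crb3 and S100a14, were already known to be among the higher genes of malignant cells, so their calls are a description. Every member is reported. From each other list the most abundant gene, those of highest and lowest ratio and every called gene are named. Promoters come from RefSeq, and coordinates from GRCm38.p6. No reads were analysed. Software was Python 3.11.15, scanpy 1.11.5, numpy 2.4.6, scipy 1.17.1, pandas 2.3.3, leidenalg 0.10.2, igraph 0.11.9 and matplotlib 3.10.9. Alternatives covered the gate, cell filters, scaling, weighting, UMI minimum, fold and clustering.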

Additional observations from a re-analysis of the deposited data

How the results depend on the processing

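Each member ratio was recomputed under up to 15 alternatives, 567 in all: 476 stayed within the main counting interval, 91 moved beyond it and 0 called ratios changed side. Some ratios near 1 of members not called did change side: Cdh1 stayed above 1 in 11 of 15 alternatives and Ehf in 10 of 14. The 32 of 38 members with a ratio above 1 became 28 of 38 as a mean over cells. They became 28 of 36 with equal weight for each sub-cluster and 33 of 38 with the median gene set to 0. The count of 7 members called higher was 6 as a mean over cells (without Crb3; 1.64% of all genes higher), 6 with cells thinned to 5000 UMIs (without Bspry; 1.59%), 4 with equal weight for each sub-cluster (0.653%) and 2 with 10 CPM added (0.0868%), where the ratios of Ap1m2 (1.18) and Bspry (1.14) moved by over 1.5 times, which the added constant gives for scarce genes. At the lower fold tried the count was 13 (5.47% of all genes), and at a fold of 2 it was 2 (0.534%). The count of 0 members lower became 1 as a mean over cells and with equal weight (Ovol1 in each), and 1 at a UMI minimum of 10 (Krt5). The mean over cells, equal weight and 10 CPM added kept the main counting intervals, so only the ratio was recomputed there. The median log2 ratio of 0.24 became 0.19 as a mean over cells and 0.17 with 10 CPM added. Without the Csn3-high cluster and without the Csf3 sub-cluster, both chosen after seeing the data, the counts were 8 and 7 (2.0% and 1.67% of all genes).

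Members set apart in other classes numbered 2 in T and NK cells, 1 in fibroblasts and 2 in macrophages with doublets kept, 1 in fibroblasts with Krt8, Krt18, Krt19 and Epcam as the reference, and 2 in monocytes at resolution 2.0. St14 was lost in T and NK cells with doublets kept (with Cdh1 and Spint2), with the 4-gene reference, with all cells of the class and against the median over members, and Pkp3 was lost in monocytes with doublets kept, which left 3. With all cells of the class 1 was set apart in fibroblasts, and against the median over all members 1 in fibroblasts and 2 in monocytes; both alternatives were chosen after seeing the data. At resolution 0.5 no monocyte class formed. The cause of these moves was not tested. No paired analysis was possible because each group is 1 library, and no replicate could be left out. Depth limits Krt5, Tjp3, Ehf, Esrp2 and Bspry, with 0 to 218 UMIs per library.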
